A study of Mus musculus with 47 samples.

Results

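Collagen and matrix genes are described here in cultured mouse B cell lymphomas. The set held every gene whose only symbol on the array's annotation was a collagen chain (Col, a number, a, a number, such as Col1a1), together with a named list of matrix glycoproteins, proteoglycans and matrix enzymes. In all, 54 of the 18194 genes measured were members, 42 of them collagen chains and 12 named genes (Fn1, Sparc, Efemp1, Lum, Dcn, Postn, Thbs1, Thbs2, Lox, Bgn, Plod2 and Serpinf1). Fbn1, also on the named list, was not analysed here. Each gene was represented by its brightest probe set over 47 arrays, and the members had 107 probe sets.

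Collagens are trimers of alpha chains. Collagen I (Col1a1 and Col1a2), III and V form the fibrils of connective tissue, collagen IV forms the network of basement membranes and collagen VI forms beaded filaments near cells. Fibroblasts secrete the fibrillar chains with fibronectin and small proteoglycans, and lysyl hydroxylases such as Plod2 prepare, and lysyl oxidase (Lox) forms, their crosslinks. B cells are not known as a main source of fibrillar collagen.

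The arrays held 7 groups from the Eµ-myc transgenic model, in which a Myc transgene active in the B cell lineage gives B cell lymphomas. All cultures were lymph node lymphoma cells carrying a Bcl2 retrovirus. Puromycin selection lasted 48 h, and the feeder layer was NIH 3T3 mouse fibroblasts irradiated with 20 Gy. Suv39h1 WT lymphomas were measured after 5 days in 0.05 µg/ml Adriamycin (ADR, a DNA-damaging drug, labelled senescent) and untreated (native), with 14 arrays each. Suv39h1- lymphomas were measured under ADR and native, with 5 arrays each, both labelled non-senescent. Suv39h1 is a histone methyltransferase. Cultures labelled Suv39h1- plus Suv39h1ER were measured under ADR with 4OHT (4-hydroxytamoxifen, labelled senescent), under ADR alone and native (both labelled non-senescent), with 3 arrays each. Ages, the 4OHT dose and the clonality of the cultures are not given in the sources used here. The feeder was shared by all groups and is of the same species as the lymphomas, so feeder RNA and lymphoma RNA cannot be told apart in these values. Likewise, in bulk RNA, fewer cells of a type and less RNA per cell cannot be told apart.

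The deposited values were log2 levels. Array medians lay between 4.32 and 4.43, except for Suv39h1- lymphoma 1032 under ADR, at 4.07. Over the 200 most variable probe sets, pairs of native arrays among WT lymphomas 2949, 5043, 5766 and 6054 had r between 0.734 and 0.934, against a median of 0.504 and a highest value of 0.773 for other pairs. Suv39h1- lymphomas 7890 and 9250, counted as alike in earlier work on these data, had r = 0.394 here. The number 5043 names both a Suv39h1ER culture and a WT lymphoma, and 4936 both a Suv39h1ER culture and a Suv39h1- lymphoma. If a lymphoma entered more than once, p-values are too small. The targeted gene Suv39h1 was not analysed here. Cd79a, a defining B cell receptor subunit, was between 7.28 and 10.81 in WT ADR arrays and between 9.27 and 10.46 in WT native arrays. In the other groups it was at 5.93 to 8.77 in Suv39h1- ADR arrays, 6.73 to 8.74 in Suv39h1- native arrays and, in Suv39h1ER cultures, 7.52 to 8.38 under ADR 4OHT, 7.38 to 8.51 under ADR and 7.67 to 8.37 in native arrays.

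Promoters are shown for the 3 members below because they are a collagen I chain, the collagen III chain and the member with the highest change in WT. Each window runs from 250 bases before to 50 bases after the start that the RefSeq promoter table uses in GRCm38.p6, read in the direction of the gene. For Col1a2 and Col3a1 that start is the first annotated base of the gene, and for Efemp1 it lies downstream of it. Capitals mark matches to a TATA box (TATAAA), to the NF-Y box (CCAAT) and to a pattern that holds AP-1 sites among others (TGANTCA), all searched on both strands.

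Col1a2 (chr6:4505368-4505667, plus strand): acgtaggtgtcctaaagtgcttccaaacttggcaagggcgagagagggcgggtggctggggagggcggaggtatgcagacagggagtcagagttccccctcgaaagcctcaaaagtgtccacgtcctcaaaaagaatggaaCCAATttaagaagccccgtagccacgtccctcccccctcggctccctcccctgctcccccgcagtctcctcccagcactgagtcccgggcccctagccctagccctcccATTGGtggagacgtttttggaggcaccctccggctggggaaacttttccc
Col3a1 (chr1:45311288-45311587, plus strand): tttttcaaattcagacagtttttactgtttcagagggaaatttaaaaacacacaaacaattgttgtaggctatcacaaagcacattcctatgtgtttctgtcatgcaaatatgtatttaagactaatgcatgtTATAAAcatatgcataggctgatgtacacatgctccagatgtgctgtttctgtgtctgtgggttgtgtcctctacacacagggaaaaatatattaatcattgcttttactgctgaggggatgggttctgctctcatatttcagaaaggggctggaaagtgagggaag
Efemp1 (chr11:28852955-28853254, plus strand): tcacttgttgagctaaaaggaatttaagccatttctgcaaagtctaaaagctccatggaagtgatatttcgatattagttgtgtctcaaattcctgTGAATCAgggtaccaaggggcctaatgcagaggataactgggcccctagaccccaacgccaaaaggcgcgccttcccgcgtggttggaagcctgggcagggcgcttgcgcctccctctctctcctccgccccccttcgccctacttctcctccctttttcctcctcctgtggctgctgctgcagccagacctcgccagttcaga

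Positions count from 1 at the start used for each window. The Col1a2 window held an NF-Y box at -109 and another on the other strand beginning at 1. The Col3a1 window held a TATA box at -117, and the Efemp1 window held the third pattern at -154, matched on both strands. No matches to different patterns overlapped in the windows shown. Windows were found for 39 of the 54 members, 43 windows in all. The TATA box occurred in 16.3% of member windows and 13.6% of the 32851 windows of all genes, the NF-Y box in 37.2% and 37.4%, and the third pattern in 4.65% and 7.81%. These matches are a description of the letters. Median GC content was 58.7% in member windows and 52.7% in all windows.

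Whether matrix genes changed under ADR in WT lymphomas was asked first. Chains of collagens I, III and V, fibronectin, the proteoglycans and the crosslinking enzymes were higher under ADR than in native cultures, in sizes that differed widely between lymphomas. Of the 54 members, 29 were higher and 0 lower (limma, two-sided, Benjamini-Hochberg adjusted over all genes, called below 0.05), that is 53.7% of members against 30.2% of all genes called in either direction and 16.1% called higher. At an unadjusted p under 0.05, 33 of the 54 members and 6924 of all 18194 genes passed. The median log2 change was 0.36 over the members and -0.0002 over all genes, and 46 members lay above 0.

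Both chains of collagen I rose. Col1a1 ranged from 4.19 to 9.71 with a median of 6.0 in WT ADR arrays, and from 3.36 to 4.99 with a median of 3.88 in WT native arrays. The groups overlapped, but Col1a1 was higher under ADR in 14 of 14 lymphomas. Its log2 change was 2.25 ± 0.37 (SE, n = 14; limma adjusted p = 3.88e-05). That SE and those below come from 1 fit of all 47 arrays, with a spread shared by the groups, and not from the n changes alone. A dimmer Col1a1 probe set had a mean change of 0.99, also higher in 14 of 14 lymphomas. Col1a2 ranged from 5.85 to 11.81 with a median of 8.71 in WT ADR arrays, and from 4.53 to 6.99 with a median of 5.25 in WT native arrays. It was also higher in 14 of 14 lymphomas, with a log2 change of 3.09 ± 0.43 (SE, n = 14; limma adjusted p = 5.12e-06). The dimmer Col1a2 probe sets had mean changes of 2.85 and 0.17. Col3a1, the chain of collagen III, was at 3.18 to 6.78 in WT ADR arrays and 2.51 to 3.39 in WT native arrays, and rose by 1.51 (13 of 14 lymphomas). A dimmer Col3a1 probe set, at a mean level of 2.50, had a mean change of 0.14 (higher in 10 of 14 lymphomas). Col5a2 and Col5a1, chains of collagen V, which assembles into fibrils with collagen I, rose by 2.31 and 0.54. Dimmer Col5a1 probe sets had mean changes of 2.05 and 0.32, and a dimmer Col5a2 probe set 0.47. The probe sets of both genes thus disagree in size. The other 6 of the 11 fibrillar chains did not pass, with changes from 0.06 (Col24a1) to 0.38 (Col11a2).

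**Figure D1:**
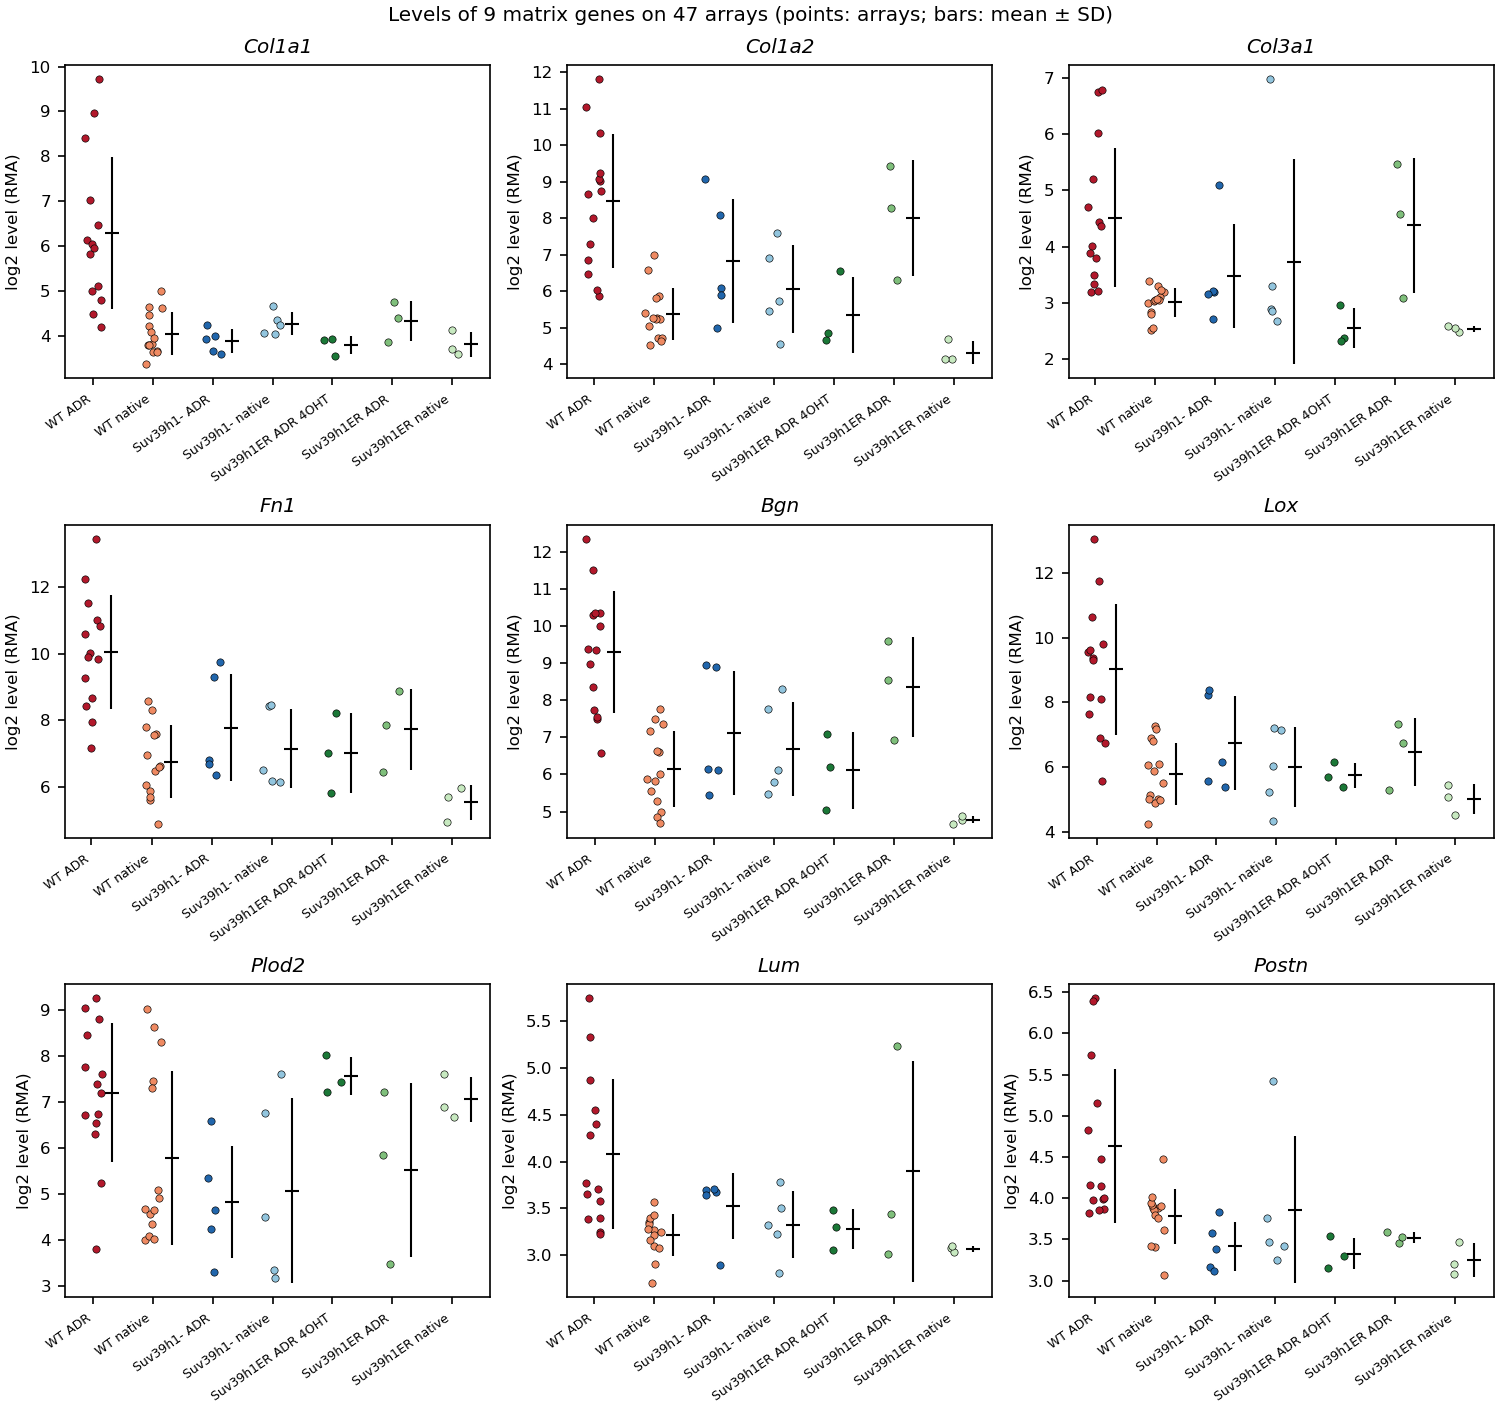
Log2 levels (RMA) of 9 matrix genes on 47 arrays in 7 groups; points are arrays and black bars are the mean ± SD. WT ADR arrays reach 9.71 for Col1a1, while the Suv39h1ER ADR arrays reach 9.43 for Col1a2.

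The adhesive glycoproteins all rose in WT, 6 of 6. Efemp1 (fibulin-3, an elastic fibre glycoprotein) ranged from 3.60 to 11.81 with a median of 7.52 in WT ADR arrays and from 3.09 to 4.84 with a median of 3.67 in WT native arrays. Its log2 change was 3.70 ± 0.50 (SE, n = 14; limma adjusted p = 4.21e-06), the highest among the members. Fn1 (fibronectin) ranged from 7.18 to 13.45 with a median of 9.95 in WT ADR arrays and from 4.91 to 8.58 with a median of 6.63 in WT native arrays, a change of 3.30. The 2 groups of 14 arrays overlapped for both genes. Thbs1 and Thbs2 (thrombospondins, which modulate adhesion and growth factors) rose by 2.46 and 1.14, Sparc (a collagen-binding glycoprotein) by 2.39 and Postn (periostin) by 0.85. A dimmer probe set of Sparc had a mean change of -0.06 where the other 2 had 2.39 and 2.64.

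The small leucine-rich proteoglycans, which bind collagen fibrils, rose in WT in 3 of 3 members. Bgn (biglycan) ranged from 6.58 to 12.35 with a median of 9.37 in WT ADR arrays and from 4.71 to 7.75 with a median of 5.94 in WT native arrays, a change of 3.15. Dcn (decorin) rose by 2.38 and Lum (lumican) by 0.87. A dimmer Dcn probe set, at a mean level of 2.96, had a mean change of -0.09 (higher in 6 of 14 lymphomas). Both crosslinking enzymes rose. Lox ranged from 5.57 to 13.04 with a median of 9.35 in WT ADR arrays and from 4.27 to 7.27 with a median of 5.71 in WT native arrays, a change of 3.22. Dimmer Lox probe sets had mean changes of 3.12 and 0.35. Plod2 rose by 1.41, in 10 of 14 lymphomas (limma adjusted p = 0.0104). Serpinf1 (PEDF, a secreted serpin) rose by 1.72.

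Collagen IV chains Col4a1 (1.18), Col4a2 (1.07), Col4a5 (0.87) and Col4a6 (0.50) rose, while Col4a3 and Col4a4 had changes of 0.05 and 0.09 and did not pass. For collagen VI, Col6a1 (1.95), Col6a2 (1.24) and Col6a3 (1.81) rose, and Col6a4 and Col6a5 had changes of 0.02 and -0.003. Col8a1 (1.23) and Col10a1 (0.19) passed among the 3 short chain collagens, and Col16a1 (0.72) and Col20a1 (0.34) among the 9 fibril-associated ones. Col7a1, the anchoring fibril collagen, rose by 0.28. None of the 4 transmembrane chains or the 2 multiplexins passed, and Col18a1, whose fragment is endostatin, had a change of 0.16. Col14a1 had the lowest change, -0.33, and did not pass (limma adjusted p = 0.0619). It was called lower with alike lymphomas counted once (-0.46; limma adjusted p = 0.019) and without lymphoma 1570, 2949 or 6054.

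**Figure D2:**
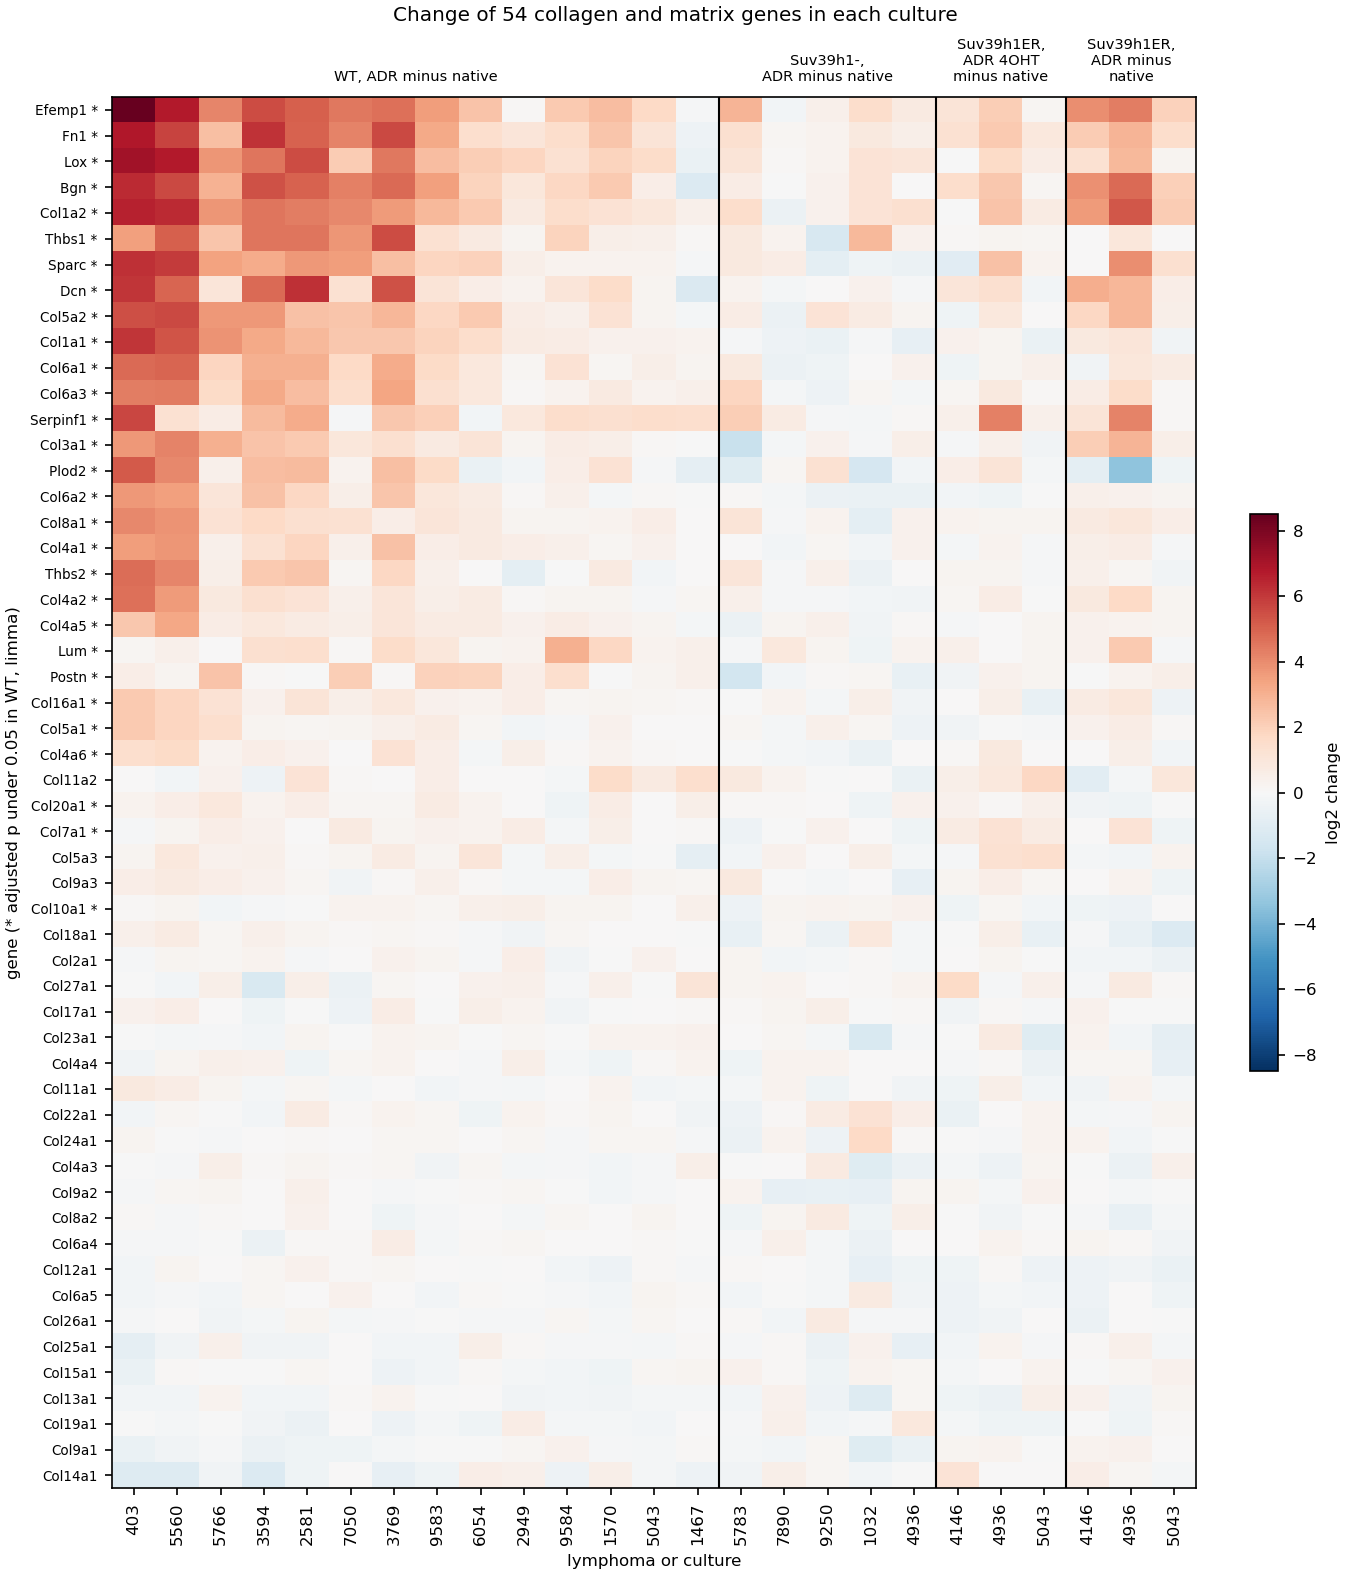
Log2 change of the 54 members in each culture, with rows ordered by the change in WT and WT lymphomas by the change of Col1a1. Asterisks mark adjusted p under 0.05 in WT; 24 members were up by at least 1 in lymphoma 403 and 1 in lymphoma 2949.

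The size of the change differed between lymphomas. A log2 change of at least 1 was seen for 24 members in lymphomas 403 and 5560, 23 in 2581, 22 in 3769, 21 in 3594, 18 in 5766, 16 in 9583 and 14 in 7050. It was seen for 11 members in 1570, 6054 and 9584, 4 in 5043, 3 in 1467 and 1 in 2949. Over all genes, the share up by at least 1 was 9.48% in lymphoma 403, 8.43% in 5560, 7.46% in 2581, 7.93% in 3769, 6.96% in 3594, 4.53% in 5766, 2.24% in 9583 and 4.98% in 7050. It was 5.08% in 1570, 2.62% in 6054, 3.2% in 9584, 3.22% in 5043, 4.44% in 1467 and 2.35% in 2949. The order of the lymphomas by members and by all genes was not the same, as 9583 had the lowest share of all genes and 16 members. Col1a1 differed by 6.06 in 403 and 5.32 in 5560, but by 0.27 in 1467. The mean of the 39 fibroblast markers outside the matrix, described further on, differed by 2.55 in 403 and 2.29 in 5560, but by 0.15 in 2949 and 0.03 in 1467. The mean of 15 B cell markers differed by -1.17 in 403 and -1.54 in 5560, but by 0.41 in 1467. The mean of 17 macrophage markers differed by 0.93 in 403 and 3.04 in 2581. The part of these in the members' values was not tested. Without 403 and 5560 together, 26 members passed. Col5a1, Plod2 and Col10a1 no longer did, with values of 0.29, 0.87 and 0.19.

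Lum and Postn rose most in lymphomas other than 403 and 5560, some of which also had many members up. Lum differed by 3.05 in 9584, 1.76 in 1570, 1.55 in 3769, 1.46 in 2581, 1.38 in 3594 and 0.97 in 9583, but by 0.18 in 403 and 0.41 in 5560. Postn differed by 2.40 in 5766, 2.08 in 7050, 1.98 in 9583, 1.92 in 6054 and 1.40 in 9584, and by at most 0.57 in the other 9. Across the 14 WT lymphomas, the change of Col1a1 was compared with that of each of the other 53 members by 100000 permutations, with p-values adjusted over the 53. Col1a2 followed it with Pearson r = 0.963 (permutation adjusted p = 7.57e-05) and Spearman rho = 0.947 (permutation adjusted p = 0.000132), and r = 0.933 without 403 and 5560, the lymphomas farthest from the median, at n = 12. For Lum the relation did not pass (r = -0.31, permutation adjusted p = 0.39; rho = -0.36, permutation adjusted p = 0.307; r = -0.15 without 403 and 5560), nor did it for Postn (r = 0.0155, permutation adjusted p = 0.996; rho = 0.143, permutation adjusted p = 0.757; r = 0.301 without 403 and 5560). In all, 24 members had a positive and 3 a negative r that passed, and 23 and 2 by rho. Genes outside the members were not compared with Col1a1 in this way, so these counts have no share of all genes beside them.

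**Figure D3:**
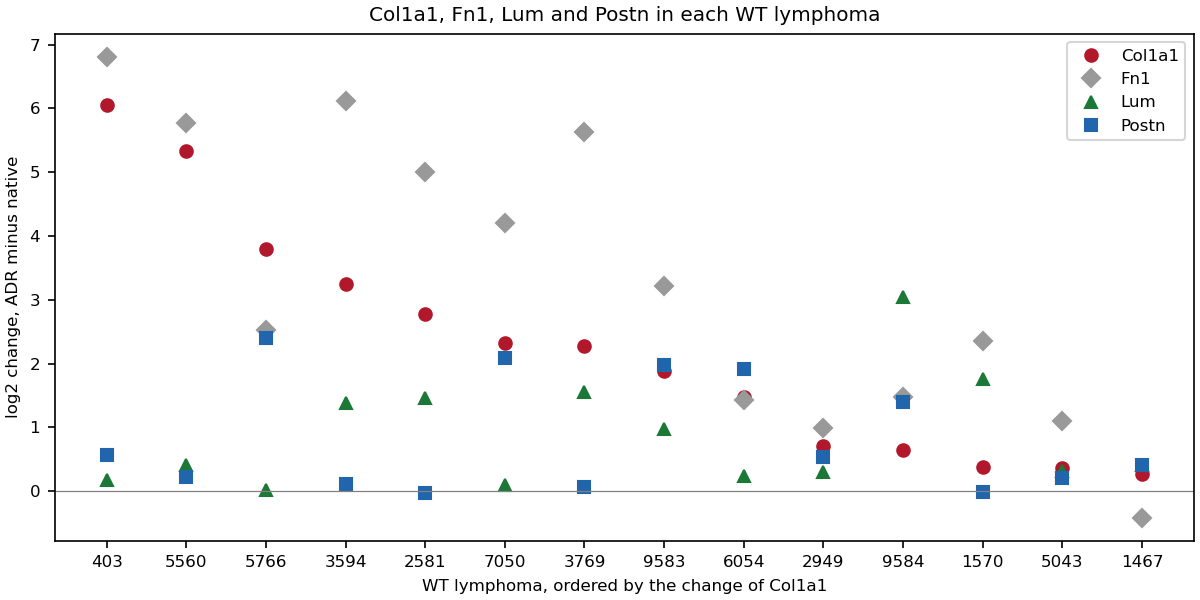
Log2 change (ADR minus native) of Col1a1, Fn1, Lum and Postn in each of the 14 WT lymphomas, ordered by Col1a1. Col1a1 runs from 6.06 to 0.27, while Lum is highest in 9584 at 3.05 and Postn in 5766 at 2.40.

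Other matrix genes were counted in WT, where 16.1% of all genes were called higher and the median change over all genes was -0.0002. Of 32 other matrix glycoproteins and proteoglycans, 17 were higher and 0 lower (median change 0.31), with Ccn2 at 3.21, Fbln2 at 2.75 and Ecm1 at 1.97. Of 21 genes of collagen synthesis and crosslinking, 11 were higher and 0 lower (median change 0.36), among them Pcolce (2.77, which enhances procollagen cleavage), Tgm2 (2.07) and Crtap (0.89). Of 13 laminins and nidogens, 3 were higher and 0 lower (Nid1 2.84, Lamb1 1.85, Lamc1 0.52), and the median change of that list was 0.10. Of 20 matrix receptors, 12 were higher and 1 lower (median change 0.44), with Ddr1 (a collagen receptor) at 1.76 and Itgb1 at 0.48. Of 12 TGF-beta signalling genes, 6 were higher and 0 lower (median change 0.39), with Tgfbr3 at 1.59.

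Markers of other cell types were measured on the same arrays. Of 39 fibroblast markers outside the matrix, 25 were higher and 0 lower in WT under ADR, with a median change of 0.74. Examples were Cav1 (2.81), Acta2 (1.68) and Lgals1 (0.74). The mean level of that list ranged from 4.89 to 7.20 in WT ADR arrays and from 4.34 to 4.91 in WT native arrays. It ranged from 4.56 to 5.58 in Suv39h1- ADR arrays and from 4.57 to 5.00 in Suv39h1- native arrays. In Suv39h1ER cultures it was 4.59 to 4.72 under ADR with 4OHT, 4.60 to 5.16 under ADR and 4.40 to 4.59 in native cultures. Single markers differed, as Tcf21 averaged 3.36 in WT ADR arrays and 3.31 in WT native arrays, and Pdgfra averaged 5.43 in WT ADR arrays and 3.44 in WT native arrays. The part of fibroblast RNA in the change of the members was not tested.

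Over the 14 WT changes, as a description, the Pearson r of a member with the mean of those 39 markers had a median of 0.904 over the 29 members higher in WT, of which 24 were above 0.5. Over the other 25 members the median was -0.0755, and 4 were above 0.5. Over all 18194 genes the median was -0.0759 and 14.6% were above 0.5. Points share their native and ADR arrays, and the 29 were chosen by the same changes. Of 15 B cell markers, 5 were lower (Cd22 fell by 1.43) and 10 did not pass, against 14.1% of all genes called lower in WT. The mean level of that list had ranges of 7.66 to 10.26 in WT ADR and 8.94 to 9.64 in WT native arrays. Macrophage markers rose in 12 of 17 genes, against 16.1% of all genes called higher (Ms4a7 by 2.69), with ranges of 5.83 to 8.22 in WT ADR and 4.90 to 7.09 in WT native arrays. Mitosis genes fell in 19 of 19 genes. Endothelial markers had 1 of 12 lower, epithelial markers 1 of 10 lower, chondrocyte and bone markers 2 higher and 1 lower of 10, and adipocyte markers 2 of 7 higher. The part of any of these in the members' change was not tested.

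**Figure D4:**
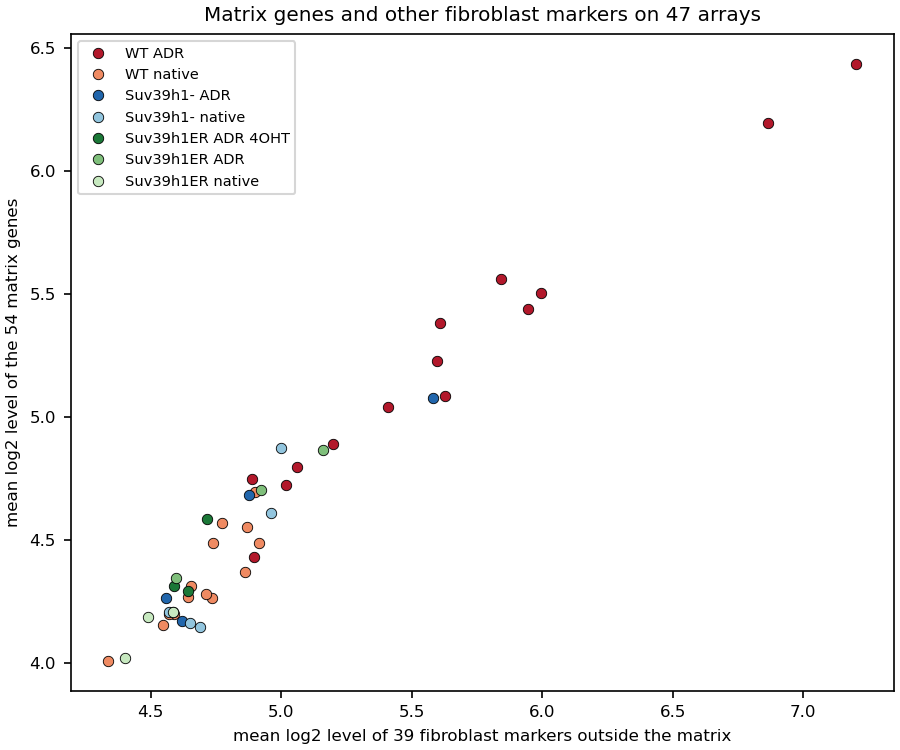
Mean log2 level of the 54 members against the mean log2 level of 39 fibroblast markers outside the matrix, one point per array (47), coloured by group. WT ADR arrays extend to 7.20 on the horizontal axis, beyond the other groups' highest value of 5.58.

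Outside the members and lists, the genes most like the mean of the members over the 47 arrays were Nrn1 (r = 0.978), Cttn (0.971), Cd34 (0.970), Fkbp9 (0.965), Pls3 (0.965) and Rhox5 (0.964).

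Suv39h1- lymphomas were compared in the same way. No member passed, at 0.011% of genes called, and the median change of the members was 0.05. Members up by at least 1 numbered 8 in lymphoma 5783, 7 in 1032, 2 in 9250, 2 in 4936 and 0 in 7890. Over all genes, the share up by as much was 3.57%, 2.28%, 0.912%, 1.74% and 0.929% in that order. Members down by at least 1 numbered 3, 4, 1, 0 and 0, against 2.38%, 5.83%, 1.84%, 0.978% and 0.478% of all genes. An unadjusted p under 0.05 was found for 3 of the 54 members and 1885 of all 18194 genes. Those members were Col9a1 (-0.36), Col22a1 (0.44) and Col9a2 (-0.29). Col1a1 was at 4.24, 3.59, 3.66, 3.93 and 3.98 in ADR arrays and 4.34, 4.04, 4.23, 4.05 and 4.66 in native arrays of lymphomas 5783, 7890, 9250, 1032 and 4936. It was lower under ADR in 5 of 5, by 0.39 on average. In 1032 its change was -0.12, with array medians of 4.07 under ADR and 4.35 native. A dimmer Col1a1 probe set had a mean change of -0.13. Col1a2 was at 9.07, 4.98, 6.09, 8.09 and 5.90 in ADR arrays and 7.60, 5.46, 5.73, 6.92 and 4.55 in native arrays, with a change of 0.78 that did not pass. Fn1 differed by 0.63 and Efemp1 by 1.08. Lymphoma 5783 was high in native Col3a1, at 6.97, where the other 4 lay between 2.67 and 3.29. The mean of the 39 fibroblast markers outside the matrix differed by 0.58 in 5783 and by -0.08 to -0.01 in the other 4. The mean of the macrophage markers differed by -0.06 to 0.78, and that of the B cell markers by -0.47 to 0.70. The part of these in the members' values was not tested.

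The ADR response of Suv39h1- minus that of WT was tested directly. No member passed, at 0.341% of genes called. An unadjusted p under 0.05 was found for 22 of the 54 members and 3424 of all 18194 genes. The median difference was -0.36 over the members against -0.05 over all genes. Col1a1 had -2.64 (95% interval -4.12 to -1.16; limma adjusted p = 0.0805), Postn -1.30 (limma adjusted p = 0.0977) and Col6a2 -1.57 (limma adjusted p = 0.116). Fn1 had -2.67, with an interval of -4.50 to -0.84.

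Under ADR, Suv39h1- arrays were set against WT arrays without pairing. Of the members 7 of 54 were lower and 0 higher, against 12.6% of all genes called in either direction and 6.3% called lower. With arrays centred on their median, which moved the median of all genes by 0.11, 4 were lower and 1 (Col19a1, 0.39) was higher; Col2a1, Col4a6 and Col9a2 no longer passed. Over all genes, 1147 were higher and 1146 lower as deposited, and 2292 were higher and 634 lower after centring. Plod2 had -2.38, Col1a1 -2.41, Col6a1 -1.91, Col4a6 -0.67, Col2a1 -0.44, Col23a1 -0.37 and Col9a2 -0.32. Col1a1 no longer passed without Suv39h1- 4936, 5783, 7890 or 9250, nor Plod2 without 4936, 7890 or 9250. Col6a1 no longer passed without Suv39h1- 1032, 4936, 7890 or 9250, or without WT 2581, 3594, 3769 or 5766. Col1a1, Plod2, Col6a1, Col4a6 and Col9a2 also failed with alike lymphomas counted once. That setting merged Suv39h1- 7890 and 9250, whose r was only 0.394, and so held fewer samples. With the mean of all probe sets, Col1a1 had -1.60 (limma adjusted p = 0.0655), Col23a1 -0.14 (limma adjusted p = 0.123) and Col4a6 -0.61 (limma adjusted p = 0.13). Col10a1 newly passed in that setting (-0.29, limma adjusted p = 0.0476). Plod2 was at 6.58, 3.31, 4.65, 5.35 and 4.23 in Suv39h1- ADR arrays and at 3.79 to 9.25 with a median of 7.29 in WT ADR arrays, so the groups overlapped. The count of 7 was 2 to 12 when a lymphoma was left out: 12 without WT 1467, 3 without Suv39h1- 7890 or 9250, and 2 without Suv39h1- 4936. Without WT 2949, Col19a1 was also called higher. Between native Suv39h1- and native WT arrays no member passed, at 1.09% of genes called. An unadjusted p under 0.05 was found for 2 of the 54 members (Col2a1 -0.28 and Efemp1 0.92) and 1735 of all 18194 genes.

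In the Suv39h1ER cultures under ADR alone, several members had higher values in 3 of 3 cultures, but none passed, at 0.126% of genes called. An unadjusted p under 0.05 was found for 10 of the 54 members and 2240 of all 18194 genes. Members up by at least 1 numbered 9 in SuvER-4146, 15 in SuvER-4936 and 5 in SuvER-5043, against 1.63%, 9.18% and 0.632% of all genes. Members down by at least 1 numbered 0, 1 and 1, against 0.649%, 5.11% and 0.319% of all genes. Cultures SuvER-4146, SuvER-4936 and SuvER-5043 had Col1a2 at 8.29, 9.43 and 6.30 under ADR and 4.68, 4.13 and 4.14 in native arrays. Its change was 3.69 ± 0.92 (SE, n = 3; limma adjusted p = 0.0992). Bgn was at 8.56, 9.60 and 6.93 under ADR and 4.68, 4.78 and 4.88 in native arrays, and Efemp1 at 6.93, 7.61 and 4.77 under ADR and 2.95, 3.27 and 2.84 in native arrays. The groups did not overlap for these 3 genes, which were named for the smallest p among the members in this comparison. The share of all genes without overlap is not given here. Col1a1 differed by 0.53, Thbs1 by 0.33 and Plod2 by -1.54. Col1a1 was at 4.39, 4.74 and 3.86 under ADR and 3.58, 3.70 and 4.13 in native arrays, so the groups overlapped. Fn1 was at 7.87, 8.87 and 6.46 under ADR and 5.70, 5.98 and 4.95 in native arrays, a change of 2.19. A dimmer Fn1 probe set had a mean change of 0.28. Plod2 was at 5.85, 3.48 and 7.22 under ADR and 6.67, 6.90 and 7.61 in native arrays, lower in 3 of 3 cultures. The response in Suv39h1ER minus that in WT was -1.72 for Col1a1, -2.14 for Thbs1 and -2.96 for Plod2; none passed. Over all members, 0 passed in that difference, at 0.0824% of genes called. An unadjusted p under 0.05 was found for 7 of the 54 members and 2552 of all 18194 genes. Among the members the smallest p were those of Col2a1 (-0.45), Col18a1 (-0.78) and Col20a1 (-0.56).

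With 4OHT added, Suv39h1ER cultures under ADR 4OHT were set against their native cultures. Only 1 member, Col7a1, passed, at 2.95% of genes called. An unadjusted p under 0.05 was found for 4 of the 54 members and 2960 of all 18194 genes. In the same order of cultures, Col7a1 was at 5.85, 5.58 and 5.80 under ADR 4OHT and 5.14, 4.33 and 5.12 in native arrays, a change of 0.88 ± 0.20 (SE, n = 3; limma adjusted p = 0.0182). The call ended when only these groups' arrays entered the fit, and without culture SuvER-4146 or SuvER-4936 (0 members without SuvER-4936). Col5a3 differed by 0.88 and Col11a2 by 1.06 without passing.

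Against ADR alone, ADR 4OHT gave no call among the members, at 0.143% of genes called. An unadjusted p under 0.05 was found for 11 of the 54 members and 2268 of all 18194 genes. Col1a2 was at 4.66, 6.56 and 4.85 under ADR 4OHT and 8.29, 9.43 and 6.30 under ADR, lower in 3 of 3 cultures, a difference of -2.65. Bgn (-2.25), Efemp1 (-2.30) and Col3a1 (-1.83) were also lower in 3 of 3, and Plod2 (2.05), Col5a3 (0.93), Col11a2 (1.08) and Col7a1 (0.61) were higher in 3 of 3. Plod2 was at 7.22, 8.02 and 7.44 under ADR 4OHT, above the ADR values of the same cultures given above. This comparison shares its arrays with the 2 comparisons against native cultures. Over the 3 cultures, the mean of the 39 fibroblast markers outside the matrix differed from native by 0.004, 0.31 and 0.15 under ADR 4OHT and by 0.34, 0.76 and 0.11 under ADR. The mean of the 17 macrophage markers differed from native by 0.70, 0.97 and 0.78 under ADR 4OHT and by 0.53, 2.10 and 0.65 under ADR. For the 15 B cell markers the differences were 0.02, 0.09 and 0.31 under ADR 4OHT and -0.62, 0.83 and 0.06 under ADR. In ADR 4OHT minus ADR, SuvER-4936 had -1.13 for the macrophage and -0.74 for the B cell markers. Their part in the members' values was not tested.

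**Figure D5:**
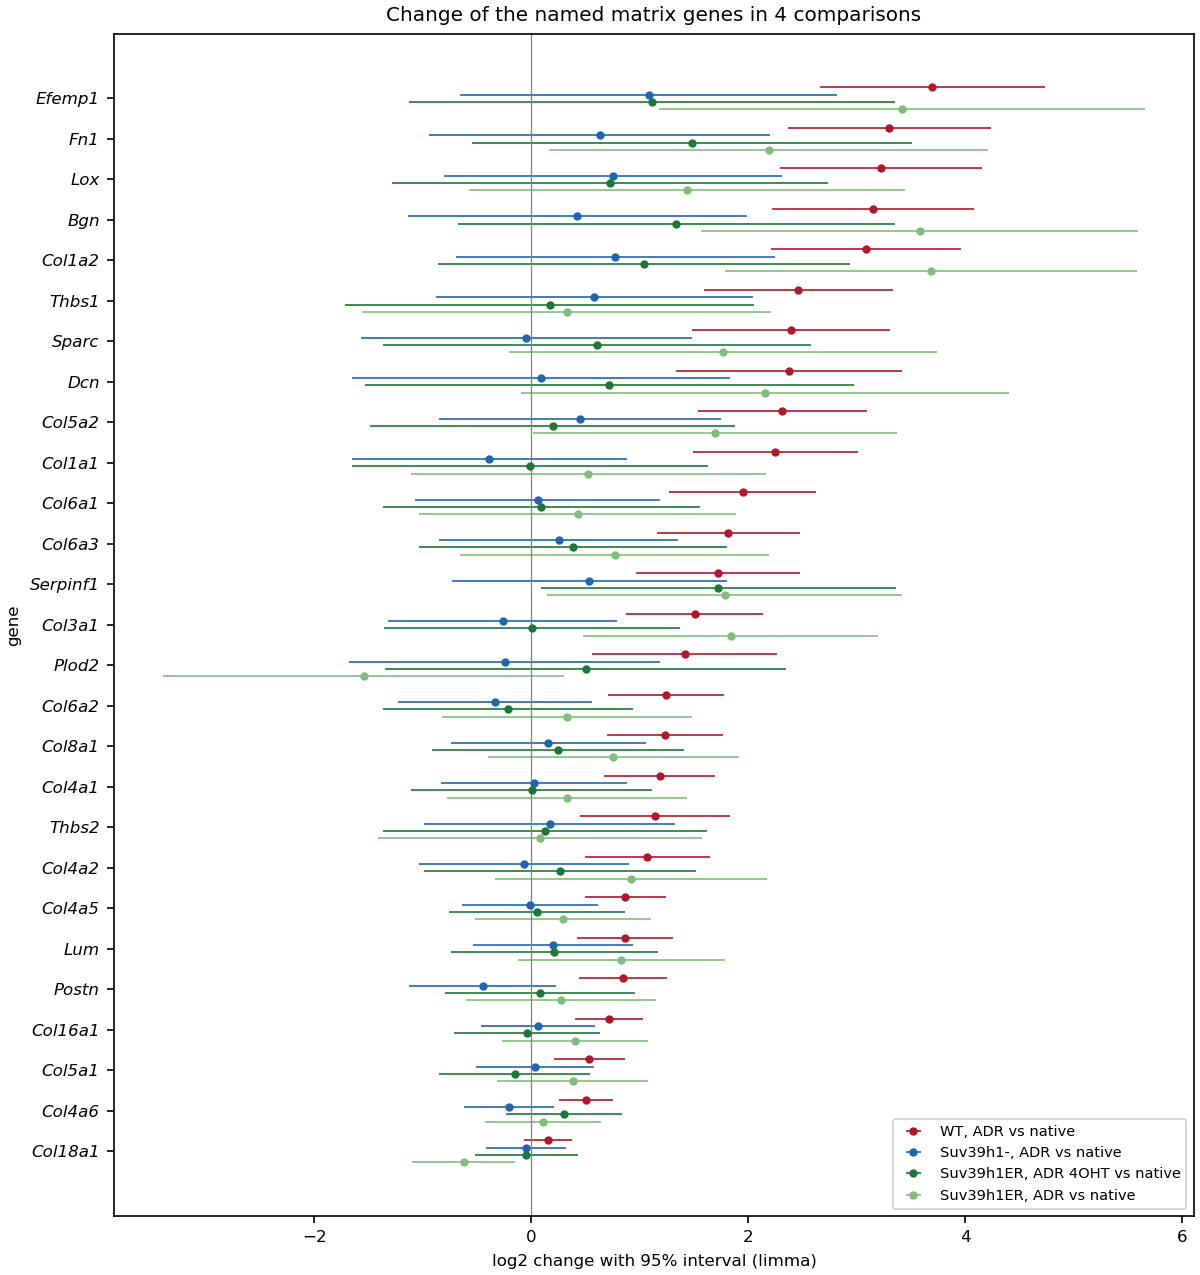
Log2 change with 95% interval (limma) of the named members in 4 comparisons; rows are genes ordered by the change in WT. Col1a2 lies at 3.09 in WT, 0.78 in Suv39h1-, 1.04 in Suv39h1ER ADR 4OHT and 3.69 in Suv39h1ER ADR.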

How the data were processed

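RNA of 47 cultures was labelled (3 µg total RNA) and hybridised to Affymetrix mouse arrays, per the labels' protocols. The authors deposited log2 values made by RMA with oligo under R 3.5.0, per the submitters' processing notes; array scans and detection calls were not used here. Of 45101 probe sets, 34958 had 1 gene symbol in the platform annotation, 932 had several and 9211 had none. Of the 34958, 34754 were matched to a RefSeq gene symbol by Entrez number, and the others kept the platform symbol. Each of 18194 genes was represented by its brightest probe set. The deposited log2 values were fitted with limma 3.58.1 (R 4.3.3), with the 22 cultures as blocks and treatment terms for the within-culture comparisons, and without a block between genotypes (19 arrays each). The within-culture fit held all 47 arrays, so each SE rests on a spread shared by WT, Suv39h1- and Suv39h1ER cultures. P-values were Benjamini-Hochberg adjusted over all genes, with calls at 0.05, and replicates are separate lymphomas by label. The pairing comes from the series' design text: deviations from group means correlated above 0.1 in 10 of 14 WT, 5 of 5 Suv39h1- and 2 of 9 Suv39h1ER pairs. The fit was tested on simulated data. The genes named were the listed members, collagens past adjusted p 0.05 with an absolute log2 change of at least 0.5, the leading collagens whatever their test, up to 8 called (or 3 smallest p) in each other comparison, up to 3 genes of each list and the 6 genes most like the members. Other members are named to account for their class, and were chosen after their values were seen. The genes of 13 lists (227 of 242 measured), like the members, were chosen with earlier results of these data known. Promoters came from RefSeq. Fbn1 and Suv39h1 were not analysed here.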

Additional observations from a re-analysis of the deposited data

Results flagged for a closer look

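Among Suv39h1- lymphomas, 111 groups of 5 values over 37 genes were screened for a value far from the other 4, and 13 were marked. For a single group, chance gives a mark about 1 time in 20. The groups share lymphomas and arrays, so the count of 13 cannot be set against that rate. No share of all genes screened in this way is given here. Lymphoma 5783 stood apart in Col3a1 (5.10 under ADR, 6.97 in the native array, a change of -1.88), in Col4a2 under ADR (4.43), in native Postn (5.42) and in the changes of Col6a3 (1.86) and Col10a1 (-0.42). Lymphoma 1032 stood apart in Col22a1 under ADR (5.45), in Lum under ADR (2.89), in native Col5a1 (4.97), in native Col6a3 (5.68), in native Col23a1 (4.42) and in the change of Col23a1 (-1.28). The array of 1032 under ADR has the lowest median of the 47.

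In the cases below, changes lay on opposite sides of 0 in every culture. The share of all genes that did so is not given here. The Suv39h1ER changes under ADR and under ADR 4OHT use the same native arrays. Col1a1 was higher in all WT and lower in all Suv39h1- lymphomas under ADR, with means 2.64 apart. The limma test of that difference did not pass (limma adjusted p = 0.0805). In lymphoma 1032 the change was -0.12, with array medians of 4.07 under ADR and 4.35 native. In Suv39h1ER cultures, the mean change from native under ADR minus that under ADR 4OHT was -0.51 for Col20a1, 0.53 for Col5a1 and 0.55 for Col6a2, and none passed in the limma test of ADR 4OHT against ADR.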

How the results depend on the processing

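Of 1133 values of named genes under alternative settings, 1084 kept their direction and side of the threshold, 47 no longer passed, 2 newly passed and 0 reversed. For ADR Suv39h1- against WT only the 7 called members entered this tally, so none could newly pass there. Other members did pass there in some settings, such as Fn1 without WT 1467 (-2.50, limma adjusted p = 0.0392). The WT count of 29 members was 27 without the replicate block, and the pairing changed no count in the other 6 within-culture comparisons; Plod2 (1.41) and Col10a1 (0.19) no longer passed without it, on the same arrays and genes. With genes whose mean was under 5 left out, 16 of 19 members tested passed in WT. For Suv39h1ER ADR 4OHT against native, 0 members passed with only these arrays fitted and 0 to 1 with a culture left out. For native Suv39h1- against WT, leaving out a lymphoma gave 0 to 1 (1 without 7890). For ADR Suv39h1- against WT, 2 of 19 passed under the dim filter, 2 with alike lymphomas counted once, and 2 to 12 with a lymphoma left out: 12 without WT 1467, 3 without 7890 or 9250 and 2 without 4936. Every setting of the last 4 sentences tested fewer genes or samples; other causes were not tested. Centring arrays on their median gave 4 lower and 1 higher member for ADR Suv39h1- against WT. Dim probe sets limit what can be seen of several collagens, as no detection calls were used.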
